A study of Mus musculus with 4 samples.

Results

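The genes described here are Yy1, its paralogue Yy2 and the genes of the chromatin complexes that YY1 is known to join or to recruit. Apart from Yy1 and Yy2 they were grouped under the Polycomb repressive complexes PRC2 and PRC1, the chromatin remodeller INO80 and the Polycomb deubiquitinase PR-DUB. A gene in a group need not be a subunit of that complex, as with Sfmbt1 and Mbtd1 under PRC1. The 49 members were matched by symbol, out of 18193 genes that had a probe set with a single symbol on the array, and 115 probe sets carried one of these symbols. The samples were epithelium of the small intestine of mouse embryos at day E15.5, and each was read on its own Affymetrix Mouse430_2 array, 4 in all. The 2 Yy1 knockout samples had the genotype Yy1f/f; Shh-Cre, with floxed Yy1 alleles and a Cre recombinase expressed from the Shh locus, which is active in gut endoderm. The 2 control samples were YY1f/f littermates, with the same floxed alleles and no Cre. All samples held cells selected with magnets for Epcam, an epithelial surface protein, from gut between the stomach and the caecum, and each pooled up to 2 embryos of its genotype. No control carried Cre, so the Cre allele and the loss of Yy1 cannot be told apart in any comparison.

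The YY1 protein binds DNA through zinc fingers and can activate some genes and repress others. Its Drosophila homologue, Pho, recruits Polycomb complexes to DNA, and mammalian YY1 has been found with Polycomb proteins and as a subunit of INO80. PRC2 methylates histone H3 on lysine 27, PRC1 ubiquitinates histone H2A on lysine 119 and compacts chromatin, and PR-DUB removes that ubiquitin. INO80 moves nucleosomes with energy from ATP and acts in transcription, replication and DNA repair.

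Values are log2 intensities as the authors normalised them with GCRMA, and a change is the mean of the 2 knockout arrays minus that of the 2 control arrays, with its standard error (SE) from limma. Testing was limited to probe sets that reached a log2 intensity of 4 on 2 or more arrays. The brightest tested probe set stood for its gene, and a change passed the test at an adjusted p under 0.05. Of the 49 members 38 were tested, and 76 of their probe sets. Across the 16887 tested probe sets Pearson's r was 0.989 between the knockout arrays, 0.990 between the control arrays and 0.905 to 0.925 across genotypes. The summed intensity of the 12 epithelial markers was 8803 and 9440 on the knockout arrays and 10478 and 11063 on the control arrays, and all of them passed the filter. Other cell types differed in their markers. The summed intensity of 13 mesenchyme markers was 2579 and 2341 on the knockout arrays and 769 and 635 on the control arrays, although Pdgfra, Twist1 and Zeb1 stayed under a log2 intensity of 4 on every array. Smooth muscle markers summed to 2873 and 2909 in the knockout and to 380 and 236 in the control, with only Des under that level, and leukocyte markers to 618 and 734 in the knockout and 193 and 189 in the control, with Ptprc, C1qa, C1qc and Cx3cr1 under it. Erythroid markers summed to 1042 and 925 in the knockout and 87 and 106 in the control, with 5 markers under it, Hba-a1 among them. Endothelial markers summed to 70 and 66 in the knockout and 87 and 76 in the control, with 7 of 8 under it, and neural markers to 64 and 53 in the knockout and 42 and 39 in the control. The signal of the Gapdh 3' probe set exceeded that of the 5' one by 1.60 and 1.65 log2 units in the knockout and by 1.31 and 1.37 in the control. The part of these differences in the member values was not tested. Each array holds RNA of a mixed sample, in which fewer cells of a type and less RNA per cell cannot be told apart.

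Across all 8626 tested genes 39.6% passed the test in either direction, 17.9% as higher and 21.7% as lower. Of the 38 tested members 12 passed, which is 31.6%, with 4 higher (10.5%) and 8 lower (21.1%). The share called was thus no larger than that of all tested genes. The median change of the members was -0.03, as for all tested genes, and the median size of a change was 0.28, against 0.33 for all tested genes. The arrays of the 2 genotypes did not overlap for 71.1% of tested members, against 75% of all tested genes. Yy1, Pcgf5 and Phc1 passed with a change of at least 2-fold, which is 7.89% of tested members, against 13.1% of all tested genes. With a further quantile normalization between arrays 8 members were higher and 8 lower (21.1% each), in place of 4 and 8, against 21.3% higher and 21.1% lower of all tested genes under that setting. Fewer members passed with any 1 of the 4 arrays left out, and so did fewer of all tested genes. Without the filter on low values only Cbx2 of the 12 still passed (limma adjusted p = 0.0459).

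Yy1 itself had log2 intensities of 7.27 and 6.81 on the knockout arrays, against 8.79 and 8.82 on the control arrays. The means were 7.04 ± 0.32 in the knockout and 8.81 ± 0.02 in the control (SD, n = 2 each). Its groups lay far apart, and the knockout arrays differed more from each other than the controls did. The change was -1.77 (SE 0.17, limma adjusted p = 0.00209), which left 29.3% of the control level, on probe set 1422569_at. The other Yy1 probe sets were also lower, at 27.7% (1422570_at), 23.4% (1435824_at) and at most 44.7% (1457834_at) of control. On the dimmest of them, 1457834_at, both knockout arrays read 2.97 and so lay under the filter, which makes that share an upper limit and a fall the only testable change. Without control 2, the Yy1 change was -1.76 with an adjusted p of 0.0504. Which exons these probe sets cover was not examined, so the deleted part of the gene may lie outside some of them. Yy2, a retrotransposed copy of Yy1 on the X chromosome, had only probe sets with another symbol beside its own, so no value is given under its name.

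Among PRC2 genes Suz12, the scaffold that holds the complex together, and Rbbp7, a histone-binding WD40 protein, fell. Ezh2, Ezh1 and Eed did not pass the test, and differences between subunits were not tested. In all, 2 of 8 tested PRC2 genes fell (25%), near the 21.7% of all tested genes, and none rose, with a median change of -0.09. Suz12 had 7.90 and 7.72 in the knockout and 8.26 and 8.53 in the control (1420022_s_at), and the groups did not overlap. Its change was -0.58 (SE 0.14, limma adjusted p = 0.0263), a 1.50-fold fall. All 5 tested Suz12 probe sets lay lower, with changes of -0.60 to -0.31, and 3 of them passed. Rbbp7 had 10.58 and 10.76 in the knockout and 11.06 and 11.20 in the control, without overlap, on a probe set of the x type, whose probes can bind related transcripts. That change was -0.46 (SE 0.12, adjusted p = 0.0336), and the other Rbbp7 probe set, 1415775_at, gave -0.74 (adjusted p = 0.00722). Neither call held when any 1 of the 4 arrays was left out, with adjusted p from 0.0618 to 0.150 for Suz12 and from 0.0843 to 0.171 for Rbbp7.

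The catalytic subunits of PRC2 are the methyltransferases Ezh2, which prevails in dividing cells, and Ezh1. Ezh2 had 7.37 and 7.43 in the knockout and 7.16 and 7.07 in the control, a change of 0.29 (SE 0.10, adjusted p = 0.0835). Its groups did not overlap, as was true of 75% of all tested genes. Eed, which reads the methyl mark that the complex makes, had 8.11 and 8.18 in the knockout and 7.91 and 7.90 in the control, a change of 0.24 (SE 0.10, adjusted p = 0.116). With a further quantile normalization Ezh2 and Eed did pass, at 0.37 (adjusted p = 0.0423) and 0.33 (adjusted p = 0.0421). Ezh1 had 4.30 and 4.30 in the knockout and 4.10 and 4.36 in the control, close to the filter, with overlapping groups and a change of 0.07 (adjusted p = 0.672).

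Rbbp4, the WD40 paralogue of Rbbp7, had a change of -0.10 (SE 0.11, limma adjusted p = 0.523) on its brightest probe set, also of the x type. Its 4 probe sets ran from -0.21 to 0.33 and none passed, so Rbbp4 and Rbbp7 gave different calls, but the difference between them was not tested. The accessory subunits Jarid2 and Mtf2, which guide PRC2 to chromatin, had changes of -0.11 (adjusted p = 0.517) and -0.09 (adjusted p = 0.517). The 5 Mtf2 probe sets disagreed in sign, from -0.59 to 0.27, and 1449115_at passed as lower (-0.36, adjusted p = 0.0493). The accessory genes Phf1 and Phf19 stayed below the filter, with highest values of 2.44 and 2.51 on any array, near the lowest value of the arrays (2.36).

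The PRC1 group, with Sfmbt1 and Mbtd1 in it, held 8 of the 12 called members. Of 16 tested PRC1 genes 5 fell (Pcgf5, Pcgf2, Sfmbt1, Kdm2b and Cbx2), 3 rose (Phc1, Phc2 and Yaf2) and 8 did not pass. That is 50% called, against 39.6% of all tested genes, with Sfmbt1 testable only as a fall, and the median change was -0.14, against -0.03 for all tested genes.

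The Pcgf proteins define the variants of PRC1, each pairing with a RING1 ligase. Pcgf5, of a variant PRC1, had 6.61 and 6.24 in the knockout and 7.48 and 7.54 in the control (1434666_at). Both knockout arrays lay well below both controls. The change was -1.09 (SE 0.15, limma adjusted p = 0.00546), a 2.12-fold fall, and a second probe set, 1429564_at, gave -1.39 (SE 0.11, adjusted p = 0.00129). The third, 1453636_at, gave -0.18 (adjusted p = 0.334) at values of 4.03 to 4.41. Pcgf2 (Mel18), which builds canonical PRC1, had 5.89 and 5.83 in the knockout and 6.66 and 6.52 in the control, a change of -0.73 (SE 0.11, adjusted p = 0.00669). A dim second probe set, with values of 4.04 to 4.16, gave -0.09 (adjusted p = 0.523). Pcgf5 did not pass without control 1 (adjusted p = 0.0576) or control 2 (0.0746), and Pcgf2 did not pass without control 1 (0.0552), control 2 (0.0546) or knockout 2 (0.0615).

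Bmi1 (Pcgf4), the close paralogue of Pcgf2 in canonical PRC1, had 5.39 and 4.95 in the knockout and 5.64 and 5.72 in the control. Its groups did not overlap and knockout 2 lay lowest, but the change of -0.51 (SE 0.17) did not pass (adjusted p = 0.0642). It passed when knockout 1 was left out (-0.73, adjusted p = 0.0454). Pcgf3, the paralogue of Pcgf5, had a change of -0.04 (adjusted p = 0.833) on its brighter probe set and of 0.59 (adjusted p = 0.0109) on a dimmer one, 1440203_at. Pcgf6, of the variant PRC1 that silences germline genes, had a change of -0.01 (adjusted p = 0.959), and Pcgf1 stayed under the filter with a highest value of 3.66. Kdm2b, which binds unmethylated CpG islands and brings the Pcgf1 variant to them, had 5.001 and 5.31 in the knockout and 5.63 and 5.82 in the control. It fell by 0.57 (SE 0.15, adjusted p = 0.0336), and its other probe set fell by 0.45 (adjusted p = 0.0247). The Kdm2b call was lost when any 1 of the 4 arrays was left out (adjusted p = 0.0676 to 0.191).

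The catalytic subunits of PRC1 are the ubiquitin ligases Rnf2 (Ring1B) and Ring1. Rnf2 had 6.18 and 5.75 in the knockout and 6.41 and 6.58 in the control, a change of -0.54 (SE 0.17, limma adjusted p = 0.0592). Its second probe set, 1424873_at, did pass (-0.64, SE 0.12, adjusted p = 0.0130), and both pointed down. Rnf2 passed as lower in some alternatives. Among them were the mean of both probe sets (-0.59, limma adjusted p = 0.0179) and median centring (-0.50, adjusted p = 0.0431). Ring1 had 4.65 and 4.75 in the knockout and 4.72 and 4.55 in the control, with overlapping groups and a change of 0.07 (adjusted p = 0.687).

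The polyhomeotic genes Phc1 and Phc2 rose, and Phc3 did not pass. Their proteins polymerise through a SAM domain and cluster Polycomb chromatin. Phc1 had 6.27 and 6.54 in the knockout and 5.18 and 5.14 in the control, on its only probe set. The groups lay over 1 log2 unit apart. The change was 1.24 (SE 0.13, limma adjusted p = 0.00255) or 2.37-fold, the highest among the 38 tested members. On an x type probe set, like that of Rbbp7, Phc2 had 7.34 and 7.31 in the knockout and 6.41 and 6.49 in the control. It rose by 0.87 (SE 0.10, adjusted p = 0.00342), and its second probe set rose by 0.54 (adjusted p = 0.0156). Phc2 alone of the 12 called members passed without each of the 4 arrays, and Phc1 failed without control 2 (adjusted p = 0.0516). Phc3 had 4.51 and 4.66 in the knockout and 4.64 and 5.004 in the control, a change of -0.24 (adjusted p = 0.279). On the same arrays the mesenchyme markers had a median change of 2.24, and their part in the rise of Phc1 and Phc2 was not tested.

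The Cbx proteins of canonical PRC1 bind methylated lysine 27 through a chromodomain. Cbx2 had 5.22 and 5.22 in the knockout and 5.70 and 5.68 in the control, with replicates close to each other and no overlap. It fell by 0.47 (SE 0.10, adjusted p = 0.0186), and its dimmer probe set gave -0.38 (adjusted p = 0.201). Cbx6 had 7.12 and 6.93 in the knockout and 6.89 and 6.67 in the control, a change of 0.25 (adjusted p = 0.194), while a dimmer probe set of it passed as higher (0.57, adjusted p = 0.0102). Cbx7 and Cbx8 stayed under the filter, with highest values of 4.10 and 3.01 on any array. The Cbx2 call was lost when any 1 of the 4 arrays was left out (adjusted p = 0.0709 to 0.0961).

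Yaf2, whose protein was named for its association with YY1 and links RING1 ligases to variant PRC1, had 5.80 and 5.65 in the knockout and 5.06 and 5.23 in the control. It rose by 0.58 (SE 0.12, limma adjusted p = 0.0177), and a second probe set gave 0.33 (adjusted p = 0.133). Rybp, its paralogue, had only probe sets that also carried another symbol, so no value is given under its name. Sfmbt1, an MBT repeat protein whose Drosophila relative partners Pho, had 3.89 and 3.85 in the knockout and 4.50 and 4.56 in the control. It fell by 0.66 (SE 0.10, adjusted p = 0.00731), and since both knockout arrays lay under the filter, only a fall could have been tested. Mbtd1, another MBT repeat gene, had a change of 0.03 (adjusted p = 0.832). L3mbtl2 and Scmh1 were under the filter, with highest values of 4.10 and 2.98. The Yaf2 call was lost when any 1 of the 4 arrays was left out (adjusted p = 0.0742 to 0.101). Sfmbt1 did not pass without control 1 (0.0516), control 2 (0.0692) or knockout 2 (0.0588).

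The plot of values by array shows the 12 members that passed, each on an axis of the same span, so that distances can be compared between panels.

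**Figure D1:**
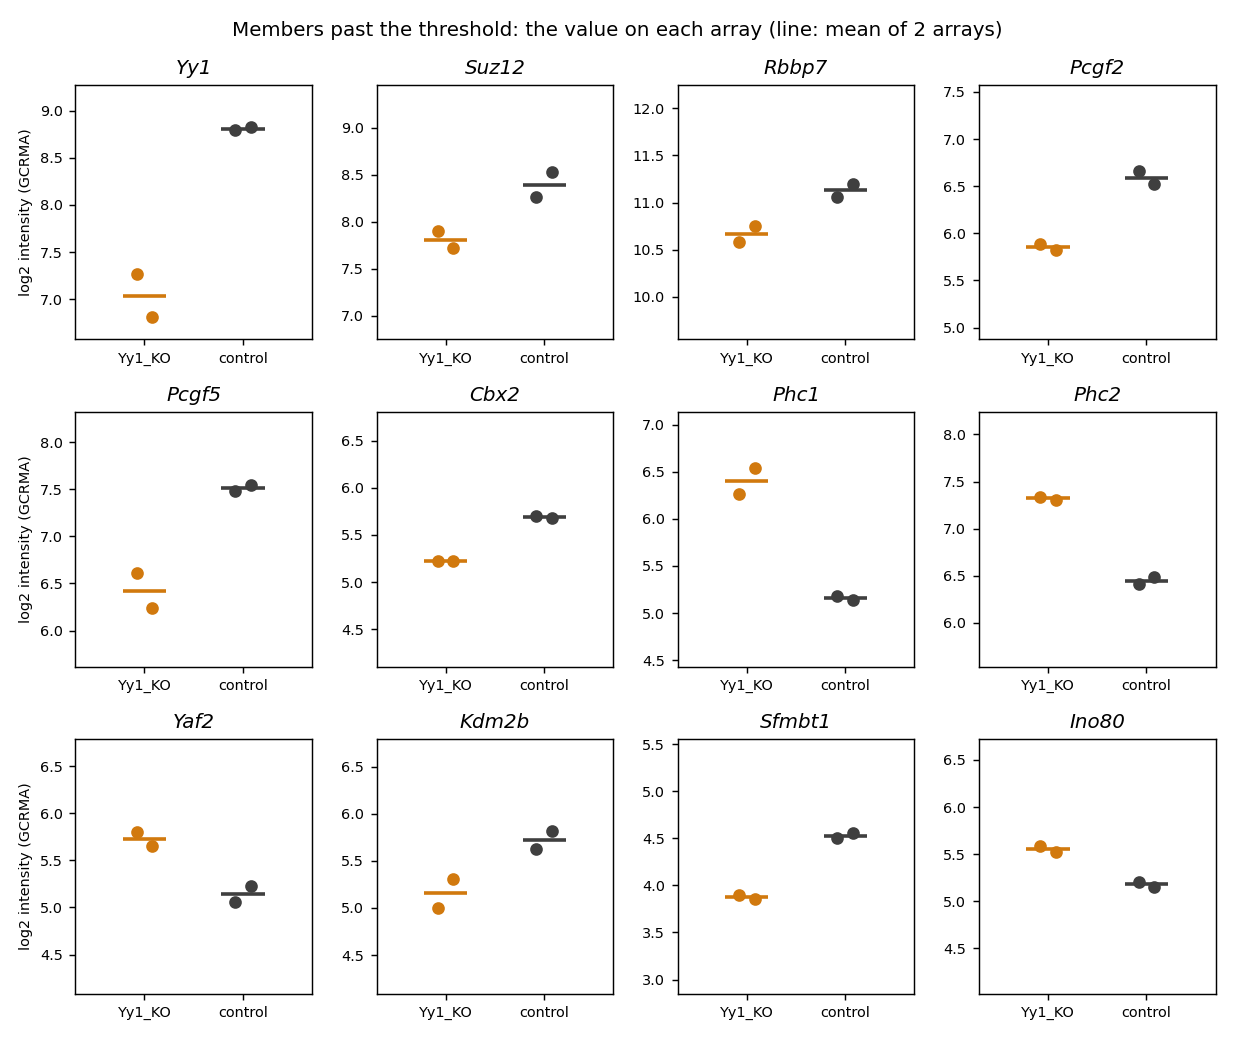
Log2 intensity (GCRMA) of the 12 members past an adjusted p of 0.05, with a point per array, a line at the mean of 2 arrays, knockout left and control right. The panels were chosen by a test on these same values. In none of them do the groups overlap, as was true of 75% of all tested genes. Yy1, Pcgf5 and Phc1 show the widest gaps.

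Of the INO80 genes a single one passed. Of 11 tested members 1 rose, none fell and 10 did not pass, which is 9.09% called against 39.6% of all tested genes. Their changes ran from -0.44 to 0.38, with a median of 0.19. Ino80, the ATPase that gives the complex its name, had 5.59 and 5.52 in the knockout and 5.21 and 5.16 in the control. It rose by 0.38 (SE 0.10, limma adjusted p = 0.0380), and its second probe set, with knockout values of 4.81 and 5.56, gave 0.52 (SE 0.26, adjusted p = 0.179). The Ino80 call was lost when any 1 of the 4 arrays was left out (adjusted p = 0.101 to 0.157) and with a variance model that used trend and robust options (0.0550).

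The paired AAA+ ATPases Ruvbl1 and Ruvbl2, which INO80 shares with the SRCAP and TIP60 complexes, stayed close to control. Ruvbl1 had 7.21 and 7.37 in the knockout and 7.54 and 7.36 in the control, a change of -0.16 (SE 0.12, adjusted p = 0.351). Ruvbl2 had 7.80 and 7.98 in the knockout and 8.15 and 8.05 in the control, a change of -0.21 (SE 0.12, adjusted p = 0.217). Neither p shows that the levels were equal. Actr8, an actin-related subunit that senses DNA between nucleosomes, had 5.80 and 5.77 in the knockout and 5.71 and 5.84 in the control, a change of 0.01 (adjusted p = 0.944). The subunits Actr5 and Ino80b were under the filter, with a highest value of 3.54 for each.

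Subunits of INO80 that were added in animals, among them Nfrkb, Mcrs1, Tfpt and the deubiquitinase Uchl5, had changes of 0.23, -0.28, 0.26 and 0.19, with adjusted p from 0.158 to 0.277. Their brightest probe sets thus did not pass, although 1 of 4 Tfpt probe sets, 1448040_at, passed as higher (0.42, adjusted p = 0.0312). Ino80c had the lowest change of the complex (-0.44, SE 0.15, adjusted p = 0.0695) and passed under median centring (adjusted p = 0.0467). Ino80d had 6.42 and 7.07 in the knockout and 6.35 and 6.40 in the control, so its change of 0.37 (adjusted p = 0.248) rested on knockout 2. Its other 2 probe sets gave -0.18 and -0.33. Ino80e had a change of 0.32 (adjusted p = 0.100) and passed with quantile normalization (0.37, adjusted p = 0.0451).

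Neither PR-DUB gene passed. Bap1, the catalytic deubiquitinase, had 7.84 and 7.92 in the knockout and 7.51 and 7.59 in the control, a change of 0.33 (SE 0.10, adjusted p = 0.0571). It passed in some alternatives, among them median centring (0.37, adjusted p = 0.0358), whereas its other probe set gave -0.08 (adjusted p = 0.540). Asxl1, which activates Bap1, had 7.23 and 7.45 in the knockout and 7.25 and 7.44 in the control, with overlapping groups and a change of -0.01 (adjusted p = 0.961).

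The plot of changes by complex sets these values side by side. The PRC1 genes are spread from -1.09 to 1.24, and the INO80 genes from -0.44 to 0.38.

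**Figure D2:**
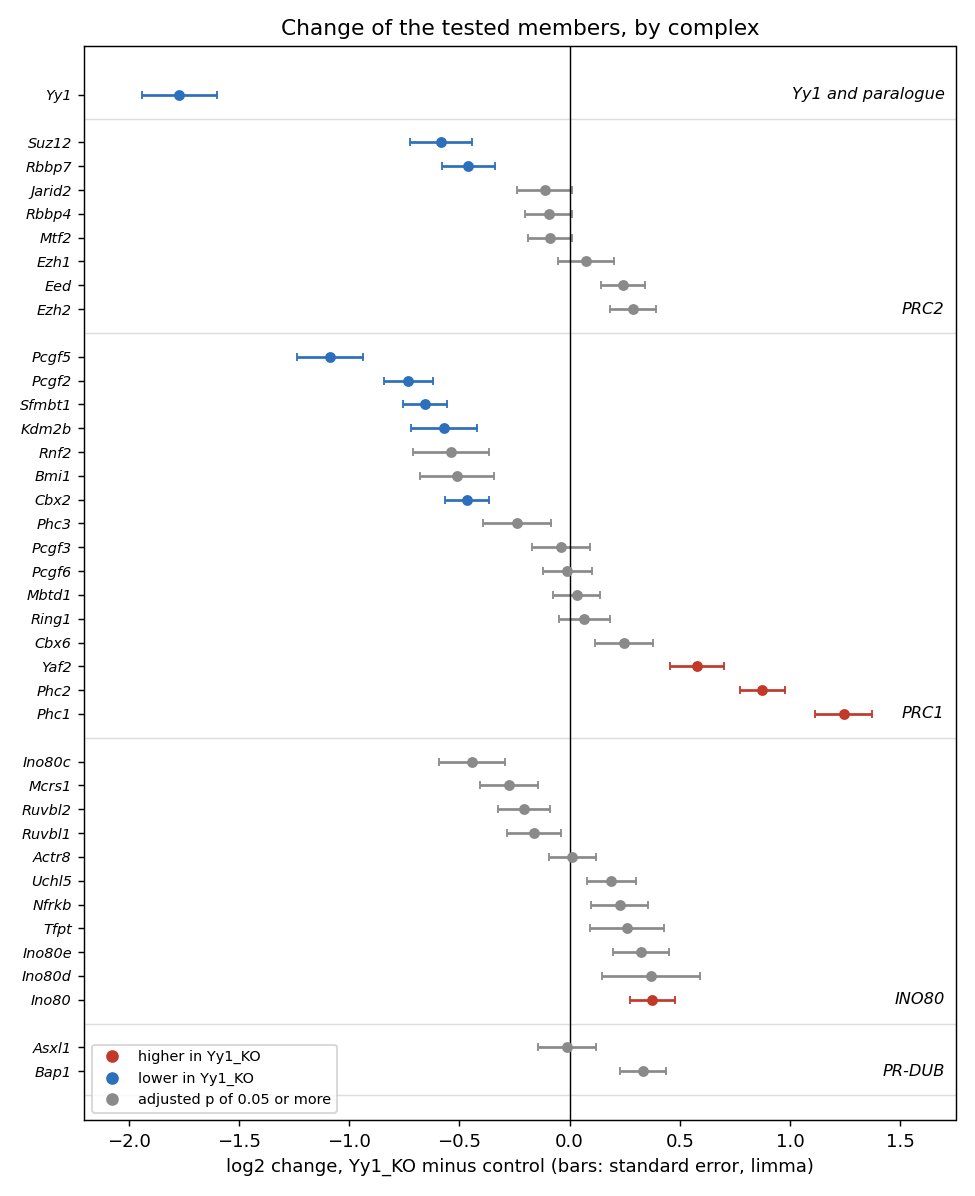
Log2 change, knockout minus control, of the 38 tested members by complex, with the standard error from limma as bars and colour for the call at an adjusted p of 0.05. Yy1 lies at -1.77, and PRC1 has called members on both sides, from Pcgf5 at -1.09 to Phc1 at 1.24.

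Several members had more than 1 tested probe set, which offers a check of each call within the gene. Of 23 such members 13 had probe sets that all pointed the same way and 10 had mixed signs, and none had probe sets that passed in opposite directions. Among all 76 tested member probe sets 8 were higher and 18 lower, beside 37.1% called among all tested probe sets. The 10 members of mixed sign were Rbbp4, Jarid2, Mtf2, Pcgf3, Pcgf6, Mbtd1, Ino80d, Tfpt, Asxl1 and Bap1, and none of them passed on its brightest probe set. The authors' deposited table, limited to changes of at least 2-fold, lists 7 probe sets of members. They are the 4 of Yy1, the 2 of Pcgf5 named above and that of Phc1 (log2 change 1.24, adjusted p = 0.00117 in the authors' deposited table).

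**Figure D3:**
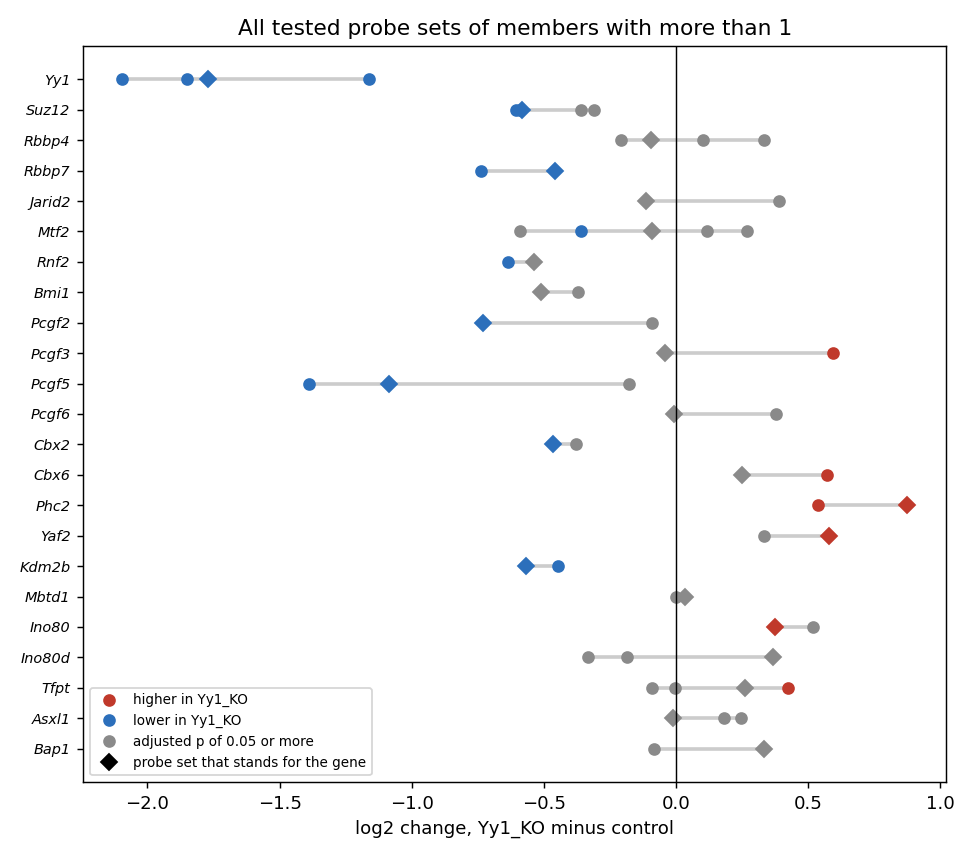
Log2 change, knockout minus control, of every tested probe set of the 23 members that had more than 1, with a diamond for the probe set that stands for the gene and colour for the call. The 4 Yy1 probe sets lie between -2.09 and -1.16, and those of Suz12, Kdm2b and Phc2 each lie on a single side of 0.

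YY1 is known to bind a short motif around the letters ATGG, so the promoters of members were searched for AAGATGG and ATGGCGG on both strands. The motifs share 4 letters and can overlap. RefSeq windows of GRCm38.p6, with 250 bases before and 50 after the start site, were at hand for 41 of the 49 members. Either motif was present in 7 of these 41 genes (17.1%), against 10.7% of all 27025 genes with a window. The genes were Phf19, Sfmbt1, Phc3, Ring1, Ino80, Ino80b and Asxl1, and the windows of Yy1 held neither. Of the called members with a window, 1 of 7 that fell (Sfmbt1) and 1 of 3 that rose (Ino80) held a motif, and 3 of 23 that did not pass did. A match is a description of letters and not a site of binding. The promoters of Sfmbt1 (chr14:30714917-30715216, plus strand) and Ino80 (chr2:119477638-119477937, minus strand) are shown as those of the called members with a match. That of Phc3 (chr3:30969366-30969665, minus strand), which did not pass, is shown because both motifs overlap in it. Each runs 5′ to 3′ along the gene with motif letters in capitals, on the opposite strand in Sfmbt1 and Ino80.
Sfmbt1: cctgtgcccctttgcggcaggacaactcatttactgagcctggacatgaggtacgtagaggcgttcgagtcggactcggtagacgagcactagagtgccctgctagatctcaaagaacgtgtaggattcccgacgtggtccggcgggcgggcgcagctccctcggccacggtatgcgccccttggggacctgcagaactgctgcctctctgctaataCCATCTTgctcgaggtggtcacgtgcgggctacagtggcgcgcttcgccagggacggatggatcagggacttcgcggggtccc
Ino80: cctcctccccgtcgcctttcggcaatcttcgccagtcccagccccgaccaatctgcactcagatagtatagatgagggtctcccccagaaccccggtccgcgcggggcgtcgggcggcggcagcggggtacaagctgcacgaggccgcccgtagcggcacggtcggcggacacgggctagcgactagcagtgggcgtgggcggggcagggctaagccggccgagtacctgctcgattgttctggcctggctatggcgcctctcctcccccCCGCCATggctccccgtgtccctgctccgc
Phc3: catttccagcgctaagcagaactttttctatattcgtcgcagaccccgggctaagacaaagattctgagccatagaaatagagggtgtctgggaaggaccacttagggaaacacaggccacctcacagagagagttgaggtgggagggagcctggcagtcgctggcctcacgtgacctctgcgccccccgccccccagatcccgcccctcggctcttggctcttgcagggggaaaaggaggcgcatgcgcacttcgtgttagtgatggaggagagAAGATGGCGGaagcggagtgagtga
In Sfmbt1 the motif lies 33 bases before the start site, and in Ino80 and Phc3 it lies 21 and 26 bases after it.

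The related lists give a scale for these counts. Among 28 tested Polycomb and PR-DUB genes outside the members 8 fell and 1 rose (32.1% called, against 39.6% of all tested genes), with a median of -0.05. The 8 became 2 without control 1, 1 without control 2, 2 without knockout 1 and 1 without knockout 2, with 6 to 8 at an unadjusted limma p under 0.05. The 1 that rose was lost in each of these fits, with 1 to 4 at an unadjusted p under 0.05. Scml4, an SCM-type Polycomb gene, had 6.09 and 5.47 in the knockout and 7.65 and 7.89 in the control, and fell by 1.99 (SE 0.23, limma adjusted p = 0.00317). E2f6, which brings the Pcgf6 variant of PRC1 to DNA, fell by 0.83 (SE 0.13, adjusted p = 0.00705), Samd11 by 0.66 (SE 0.13) and Bend3 by 0.66 (SE 0.12). The gene that rose was Cbx3, a heterochromatin protein also found in the Pcgf6 variant (0.60, SE 0.13, adjusted p = 0.0214), named after its value was seen. Of 15 Yy1 relatives and cofactors 3 fell and 1 rose (26.7% called). With 1 array left out 1 passed as lower without knockout 1 and 0 in the other 3 fits, and 0 passed as higher in any, with 2 to 5 lower and 1 to 2 higher at an unadjusted limma p under 0.05. The prolyl isomerase Fkbp3 (-0.61), the deacetylase complex subunit Sap30 (-0.48) and the zinc finger factor Sp1 (-0.48) fell, and the acetyltransferase Kat2b rose (0.62).

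Of the other remodellers, 4 of 22 tested SWI/SNF genes rose and 2 fell (27.3% called), with a median of -0.01. The ATPase Smarca2 had 7.05 and 6.80 in the knockout and 5.30 and 5.54 in the control, and rose by 1.51 (SE 0.14, limma adjusted p = 0.00207). Smarcd3, a subunit used in muscle, rose by 1.55 (SE 0.13), and its control values lay under the filter, so a fall could not have been tested. Arid1a rose by 0.65 (SE 0.10) and Phf10 fell by 0.57 (SE 0.11). The smooth muscle markers had a median change of 3.25 on the same arrays, and their part in the Smarcd3 and Smarca2 values was not tested. Of 18 SRCAP and TIP60 genes 1 rose and 2 fell (16.7% called), with Meaf6 at -0.66, Yeats4 at -0.43 and Srcap at 0.37. In the Trithorax and COMPASS list, whose complexes oppose Polycomb, 3 of 19 rose and 3 fell (31.6% called), with Cxxc1 at 0.78, Kmt2a at 0.74, Ncoa6 at -0.64 and Psip1 at 0.49. Of 13 cohesin and CTCF genes 1 rose, Nipbl (0.68), and 1 fell, Wapl (-0.68), which is 15.4% called. Of 23 proliferation genes 1 rose, Cdc20 (0.45), and 2 fell, Mcm6 (-0.43) and Mcm5 (-0.35), which is 13% called, with a median of -0.01. With any 1 of the 4 arrays left out 2 to 3 SWI/SNF genes passed as higher, and at most 1 gene in each of the other lists of this paragraph in either direction. The SWI/SNF genes that fell were lost in each of these fits, with 1 to 2 at an unadjusted limma p under 0.05.

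Classic targets of Polycomb repression were mostly not detected in either genotype. Of 40 listed only 12 were tested, 6 rose, 5 fell and 1 did not pass (91.7% called, against 39.6% of all tested genes). Of the 6 that rose 5 had both controls under the filter, so that they had to differ once tested. With 1 array left out 4 to 5 passed as higher and 1 to 3 as lower, the fewest without control 2. Meis2 (2.59, SE 0.17), Foxf1 (2.24, SE 0.16) and Meis1 (1.32, SE 0.15) rose with both controls under the filter, and the T-box factor Tbx3 fell by 1.29 (SE 0.17). Foxf1 is on the mesenchyme list as well, and the part of mesenchyme RNA in the other rises was not tested. The cell cycle inhibitor Cdkn2a, a gene that Polycomb proteins are known to silence, stayed under the filter, while the inhibitors Cdkn1c (-1.29, SE 0.11) and Cdkn2b (-1.06, SE 0.19) fell. Both were named after their values were seen, and Cdkn2b was under the filter on both knockout arrays.

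Cell type lists had other medians. Of 12 epithelial markers 3 rose (Krt18, Cldn3 and Cldn4) and 5 fell, which is 66.7% called against 39.6% of all tested genes. The list median was -0.30, with Cldn4 at 0.92, Vil1 at -1.13, Cdx2 at -1.01, Elf3 at -0.89 and Epcam at -0.44. Without control 1 the counts were 0 and 3, without control 2 they were 0 and 0, without knockout 1 they were 3 and 4, and without knockout 2 they were 1 and 3 (limma, 3 higher and 5 to 6 lower at an unadjusted p under 0.05). All 9 tested mesenchyme, all 7 smooth muscle and all 6 leukocyte markers rose, with medians of 2.24, 3.25 and 1.96, and both tested erythroid genes rose, with a median of 3.86. Of these, 4 mesenchyme, 1 smooth muscle, 3 leukocyte and 1 erythroid gene had both controls under the filter and could be tested only for a rise. The single tested endothelial marker, Egfl7, fell by 0.57 (not passed when any 1 of the 4 arrays was left out), and no neural marker passed the filter.

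**Figure D4:**
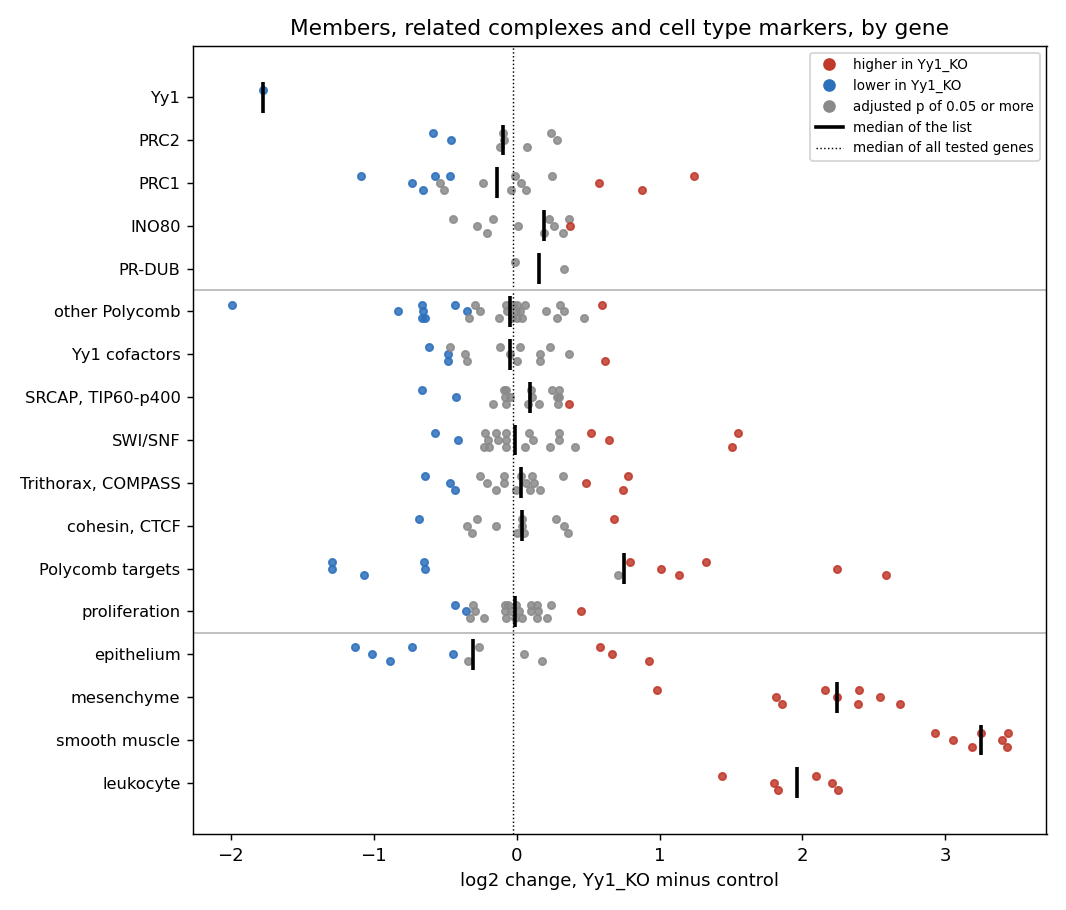
Log2 change, knockout minus control, of each tested gene in the member groups, the related lists and the cell type lists, with a black bar at the list median and a dotted line at the median of all tested genes. Member groups have medians of -0.14 to 0.19 apart from Yy1, while mesenchyme, smooth muscle and leukocyte markers lie wholly to the right of 0.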

How the data were processed

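The authors deposited log2 intensities per probe set, made with GCRMA per the submitters' processing notes, whose version is not given in the sources used here. GCRMA corrects background by probe sequence and scales arrays to each other, and it presses unexpressed probe sets onto a low value. That value differs between probe sets, for example 2.94 on all 4 arrays for Scmh1 (1426241_a_at), and 2.36 was the lowest. The authors' deposited table gives log2 fold changes, p-values and 2 kinds of score (moderated t and log odds) for 2156 probe sets, per the file headers, and its scores were not used. Its log2 changes differed by at most 0.00748 from those computed here as knockout minus control. Of 45101 probe sets 64 controls were left out, and 16887 with a log2 value of at least 4 on 2 arrays were tested with limma 3.58.1 (R 4.3.3, functions lmFit and eBayes, no covariates) and adjusted by Benjamini-Hochberg over all of them. The median SE of a gene was 0.12, and 2 arrays per group limit the precision. The samples are separate and each held up to 2 embryos. The p-values rest on the spread between samples only in part. For each probe set limma draws that spread toward a value common to all tested probe sets (prior SD 0.125, prior df 3.38).

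Symbols came from the platform annotation, and 34945 probe sets had a single symbol. The members and lists were chosen with earlier results of these data known. Genes named are Yy1 and Yy2, every called member, paralogues and core subunits whatever their result, and up to 4 called genes per related list by size. Alternatives were other filters, an offset, scalings, variance options, a replicate block, the mean over probe sets, a stricter threshold and leaving out each array. The code was tested on simulated data.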

Additional observations from a re-analysis of the deposited data

How the results depend on the processing

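No called member changed direction under an alternative, but most alternatives could not have shown such a change. Other filters, variance options, the block and the stricter threshold leave the change itself unaltered. Leaving out 1 array cannot reverse it where the groups do not overlap, as in every called member. The median change of the members, -0.03, was 0.03 with quantile normalization, 0.01 with median centring and 0.02 with the mean over probe sets. Under these settings the median of all tested genes was 0.02, 0.01 and -0.02. With 1 array left out the member median ran from -0.09 (without knockout 2) to 0.004 (without control 2). All tested genes had -0.04 and -0.0009 in those fits. All tested genes had 1840 higher and 1821 lower calls with quantile normalization, in place of 1545 and 1871. Without the filter on low values 39 genes were higher and 48 lower by limma, with 0 members higher (8 at an unadjusted p under 0.05, of 47 tested) and 1 lower, and the Yy1 change of -1.77 had an adjusted p of 0.1225. A filter at log2 6 gave 915 higher genes. An adjusted p under 0.01 left 718 genes higher (8.32%) and 893 lower (10.4%), and 2 members higher (5.26%) and 4 lower (10.5%). Quantile normalization gave 8 members higher. Leaving out 1 array gave 353 to 827 genes higher and 444 to 896 lower, and 1 to 3 members higher and 0 to 5 lower. The count of 0 came without control 2 (6 at an unadjusted p under 0.05), where Yy1 had an adjusted p of 0.0504. The Yy1 change ran from -1.996 to -1.54 in these fits, in which the single array left in a genotype was assumed to vary like the other group. The cause of these shifts was not tested, and some of these settings also differed in the number of arrays or of genes tested. With the replicate number as a block 1280 genes were higher (14.8%) and 1587 lower (18.4%). Members then had 3 higher (7.89%) and 7 lower (18.4%). The Yy1 adjusted p was 0.00422 under the block. Suz12 and Ino80 lost their calls under it, and the other Polycomb genes had 5 lower calls in place of 8. Deviations of samples with the same number correlated at -0.31. With 2 arrays per genotype this cannot show whether samples of the 2 genotypes form pairs. A crossed pairing, chosen after seeing the data, gave 1591 genes higher (18.4%) and 1924 lower (22.3%). It gave 3 members higher (7.89%) and 10 lower (26.3%). Members with no probe set past the filter at log2 6 have no value there, and opposite calls within a gene are not defined for the mean over probe sets. Low signal limits the 9 members that stayed under the filter.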
